A study of Mus musculus with 2 samples.

Results

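Gene-end peaks, the stretches of open chromatin lying no more than 1 kb from the start or the far end of a protein-coding gene, made up 15298 of the 84591 distinct nuclear peaks in the table, or 18.1%. They were chosen by position alone, from mm10 coordinates, and no measured value entered the choice. They lay at 13906 of 21887 protein-coding genes. Accessibility was compared between 1 library of basal epidermal cells labelled WT and 1 library labelled as ablation of the basal lineage, both from mouse skin epidermis and both named for K14, a keratin gene of the basal layer. For each library 50000 cells were sorted as α6High/CD34-/Lrig1-/YFP+/GFP+/RFP+, that is high in α6 integrin, negative for a hair follicle stem cell marker and for an upper follicle marker, and positive for lineage reporters, so both groups carry the reporters. The series addresses the chromatin state behind clonal expansion after cell loss. The labels do not give the ablating agent, the promoter that drives it, the interval after it, or the age and number of the animals. With 1 library per group there was no spread between animals, so the comparisons are of size alone, without tests or p-values.

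ATAC-seq uses a transposase that inserts into DNA not wrapped in nucleosomes, so reads pile up where chromatin is open. A gene's transcription start normally sits in such an opening, which holds the core promoter and is often rich in CpG dinucleotides. The far end of a gene is open less often, and the enhancers that differ most between cell types tend to lie away from gene ends. In epidermis, basal keratinocytes express Krt5 and Krt14 and are anchored by integrins, and their daughters switch to Krt1, Krt10 and Krt2 as they move into the spinous layer.

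The promoters below lie under the gene-end peaks that the results turn on. Wfdc11, Btc and Soat1 had higher signal in the ablation library, Fggy, Krt2, Angptl7 and Ceacam19 had lower signal, and Sp1 and Khsrp were among the strongest gene-end peaks. Each run is the 250 bases before a listed start in the RefSeq promoter table (GRCm38.p6, the assembly behind mm10), 5′ to 3′ on the gene's strand. Capitals mark matches, on either strand, to any of 7 short motifs: TATAAA (the TATA box), CCAAT (bound by NF-Y), GGGCGG (the GC box, bound by Sp factors), TGANTCA (AP-1), TGACGTCA (CREB), CACGTG (the E-box) and CCGGAAGT (ETS factors).
Wfdc11 (chr2:164674088-164674337, minus strand): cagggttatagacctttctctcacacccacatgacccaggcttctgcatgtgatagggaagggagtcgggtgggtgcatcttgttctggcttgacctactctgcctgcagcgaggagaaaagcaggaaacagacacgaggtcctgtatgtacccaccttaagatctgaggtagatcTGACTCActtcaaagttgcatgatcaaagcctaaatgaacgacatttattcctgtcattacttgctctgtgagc
Btc (chr5:91402995-91403244, minus strand): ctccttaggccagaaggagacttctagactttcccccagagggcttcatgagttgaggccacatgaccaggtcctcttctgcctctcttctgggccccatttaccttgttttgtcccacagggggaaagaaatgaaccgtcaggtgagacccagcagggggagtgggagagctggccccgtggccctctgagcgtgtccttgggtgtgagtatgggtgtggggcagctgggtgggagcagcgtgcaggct
Soat1 (chr1:156474329-156474578, minus strand): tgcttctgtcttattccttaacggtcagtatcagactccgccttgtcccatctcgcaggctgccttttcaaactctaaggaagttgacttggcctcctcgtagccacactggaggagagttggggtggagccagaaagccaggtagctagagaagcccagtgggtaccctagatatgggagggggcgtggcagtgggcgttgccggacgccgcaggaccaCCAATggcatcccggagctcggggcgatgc
Fggy (chr4:95557257-95557506, plus strand): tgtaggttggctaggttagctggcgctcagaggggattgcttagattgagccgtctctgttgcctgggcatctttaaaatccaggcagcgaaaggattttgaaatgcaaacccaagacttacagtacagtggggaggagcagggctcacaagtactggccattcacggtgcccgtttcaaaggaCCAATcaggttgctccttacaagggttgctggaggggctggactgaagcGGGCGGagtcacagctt
Krt2 (chr15:101818170-101818419, minus strand): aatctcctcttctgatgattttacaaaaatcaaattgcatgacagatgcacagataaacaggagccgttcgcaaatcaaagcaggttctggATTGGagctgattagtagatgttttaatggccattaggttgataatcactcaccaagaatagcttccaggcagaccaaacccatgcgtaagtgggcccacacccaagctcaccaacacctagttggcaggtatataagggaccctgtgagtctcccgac
Angptl7 (chr4:148500463-148500712, minus strand): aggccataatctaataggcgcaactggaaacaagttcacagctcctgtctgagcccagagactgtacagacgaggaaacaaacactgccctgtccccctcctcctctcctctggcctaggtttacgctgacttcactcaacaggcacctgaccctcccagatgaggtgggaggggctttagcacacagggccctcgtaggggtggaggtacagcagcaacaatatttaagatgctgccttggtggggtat
Ceacam19 (chr7:19887966-19888215, minus strand): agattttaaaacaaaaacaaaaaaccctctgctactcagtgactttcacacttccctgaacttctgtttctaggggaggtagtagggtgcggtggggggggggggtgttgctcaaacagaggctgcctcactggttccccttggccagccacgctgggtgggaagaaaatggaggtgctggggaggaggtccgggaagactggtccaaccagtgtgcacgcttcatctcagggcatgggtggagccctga
Sp1 (chr15:102406066-102406315, plus strand): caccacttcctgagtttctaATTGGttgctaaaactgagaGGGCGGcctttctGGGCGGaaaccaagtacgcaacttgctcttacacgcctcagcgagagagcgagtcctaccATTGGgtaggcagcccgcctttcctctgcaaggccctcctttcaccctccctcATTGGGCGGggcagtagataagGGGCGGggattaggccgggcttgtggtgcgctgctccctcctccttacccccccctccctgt
Khsrp (chr17:57031508-57031757, minus strand): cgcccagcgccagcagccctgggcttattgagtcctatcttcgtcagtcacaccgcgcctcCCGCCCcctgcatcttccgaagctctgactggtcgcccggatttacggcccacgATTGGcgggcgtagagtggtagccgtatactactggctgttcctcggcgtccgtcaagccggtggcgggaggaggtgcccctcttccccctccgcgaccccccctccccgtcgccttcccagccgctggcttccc
The AP-1 letters occurred 1 time, in Wfdc11, at base 177 of the run. The run of Sp1, itself the gene of a GC-box binding factor, held 3 CCAAT and 4 GGGCGG matches, of which 1 of each overlap. Btc, Angptl7 and Ceacam19 held none of the 7 motifs in this window. CpG dinucleotides numbered 24 in the run of Khsrp, 12 in Soat1, 11 in Sp1, 7 in Fggy and 4 in each of the other runs. A match is a description of letters and does not show binding.

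The control library had 17056996 reads in nuclear peaks and the ablation library 12463908. Gene-end peaks took 39.3% and 38.4% of them, with a median of 306 and 232 reads per peak, against 61 and 51 at the other peaks. Mitochondrial DNA held 7.31% (control) and 31.2% (ablation) of all reads in peaks, and what part this has in any difference was not tested. A count of 0 allows up to 3 reads, or 2.12 and 2.72 normalized reads. All values are normalized reads per peak, as deposited, and intervals are 95% intervals for counting error only. In bulk libraries, fewer cells with an open site and less opening per cell cannot be told apart.

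The labelled cell type was checked on its defining markers at gene ends. The start peak of Krt5 held 423 normalized reads in control and 443 in ablation, and that of Krt14 held 1203 and 1165. Krt5 had 3 further gene-end peaks, with log2 ratios of ablation to control of 0.50, -0.19 and 0.38, and Krt14 had 1, at 0.10. Of the laminin receptor genes, Itga6 went from 618 to 471 normalized reads (0.761-fold, 0.682 to 0.85) and Itgb4 from 560 to 498 at the peak overlapping its end. These basal genes were open at their ends in both libraries, whereas Trp63, the p63 regulator of the basal state, had no tested gene-end peak. Markers of other cell types were partly present. Of 8 endothelial markers 3 had a gene-end peak, with a summed signal of 394 in control and 362 in ablation, and Pecam1, Cdh5, Tie1, Vwf and Emcn had none. Of 8 fibroblast markers 3 had one (392 and 367), and of 9 Langerhans and myeloid markers 4 (222 and 248.5 over the tested ones), with none tested at Ptprc or Cd207. Of 8 melanocyte markers 5 had a gene-end peak (2005 and 1655 over the tested ones), among them Pmel, while Tyr, Tyrp1 and Sox10 had none tested. Of 8 T cell markers 2 had one (174 and 176). Their part in any difference was not tested.

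Strength and place went together. Gene-end peaks had a median length of 910 bp, against 494 bp at the other peaks, and a median signal of 225 against 53.8 normalized reads. A low-signal filter at 13.96 normalized reads kept 14797 gene-end peaks and 61350 others, so that 3.27% and 11.5% were lost. When the tested peaks were cut into 10 equal classes (deciles) by their mean signal over both libraries, gene-end peaks made up 6.23% of the weakest decile and 59.1% of the strongest. The top 2 deciles held 50.6% of gene-end peaks and 12.6% of the others. The log2 ratio was lower in strong than in weak deciles at either kind of peak, as the plot of decile medians shows. For gene-end peaks its median went from 0.28 in the weakest decile to -0.17 in the strongest, and for the others from 0.20 to -0.20.

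Without regard to strength, gene-end peaks had the lower ratio, and at like strength they had the higher one. Their median log2 ratio was -0.07, against 0.01 at the other peaks, a difference of -0.08. Inside deciles the order turned round. Gene-end peaks had the higher median in 10 of 10 deciles, by 0.03 to 0.11, with the widest gap in the third decile (26.1 to 35.2 normalized reads), where the medians were 0.25 and 0.14. Averaged over deciles with gene-end peaks as weights, the like-signal difference was 0.05 on the log2 scale, or 1.04-fold. It was small beside the spread of single peaks: 8590 gene-end peaks (58.1%) were above the median of the other peaks in their decile. With deciles cut on the ablation signal alone the difference was 0.02, and with deciles crossed with 3 classes of peak length it was 0.035. In every decile the gene-end peaks were also the longer ones, with medians of 300 against 277 bp in the weakest and 1186 against 1084 bp in the strongest.

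**Figure D1:**
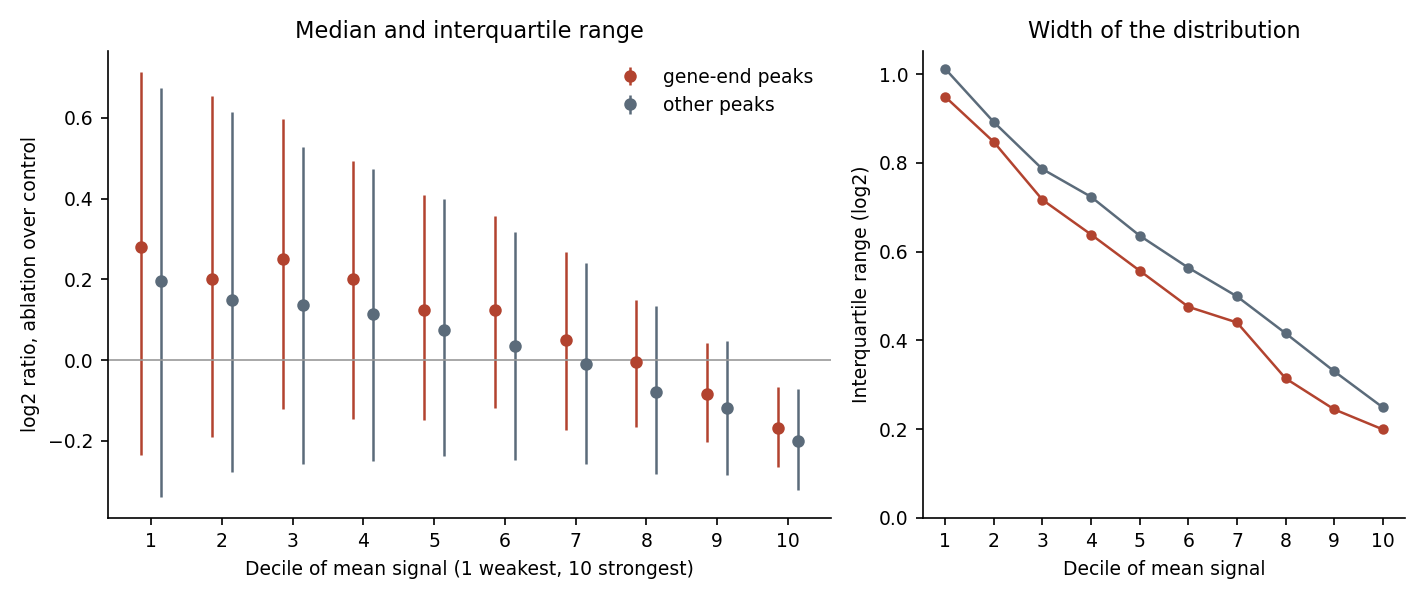
Median log2 ratio of ablation to control with the interquartile range (left) and the width of that range (right), for gene-end and other peaks in each decile of mean signal, 1 library per condition. Both medians are lower in the strongest than in the weakest decile, the gene-end median is the higher one in 10 of 10 deciles, and its range is the narrower one in 10 of 10.

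Gene-end peaks also differed less from peak to peak. The interquartile range of their log2 ratios was narrower than that of the other peaks in 10 of 10 deciles. In the weakest decile the SD over peaks was 0.68 at gene ends and 0.78 elsewhere, where counting error alone gives 0.45 and 0.46. In the strongest it was 0.15 and 0.20, with 0.08 from counting at either. Counting error was thus alike at both kinds of peak in these deciles, and the spread beyond it was the smaller one at gene ends. Of gene-end peaks 91.8% were within 1.5-fold of control, against 76.5% of the others and 88.7% at like signal, so most of that gap went with strength.

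Large differences were rarer at gene ends, and for losses only part of that gap went with strength. A gain of 2-fold or more was seen at 4.48% of all tested peaks and a loss of that size at 1.88%. Among gene-end peaks 242 (1.64%) were at least 2-fold higher, against 5.17% of the others. At the rates of other peaks in the same deciles 279 would be counted, so 0.251 of the 3.53 percentage points between the groups were left at like signal (7.10%). Among gene-end peaks 55 (0.372%) were at least 2-fold lower, against 2.24% of the others and 127 at like signal. Of that gap of 1.87 percentage points, 0.485 were left (25.9%), and observed over like-signal counts came to 0.434 for lower and 0.867 for higher peaks. At 1.5-fold the counts were 893 higher, against 921 at like signal, and 320 lower, against 753. The share of lower peaks was the smaller one at gene ends in 10 of 10 deciles, and that of higher peaks in 7 of 10. Of the 242 higher peaks 98 had a control value below the filter, and of the 55 lower ones 18 had an ablation value below it, so these passed only through the library where they were high.

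Higher peaks made up 81.5% of the gene-end peaks past 2-fold as deposited. The split depends on the scaling. Scaled to equal totals of the table's reads, mitochondrial peaks included, 73 gene-end peaks were higher and 234 lower (23.8% higher). Mitochondrial peaks held 7.31% of these reads in control and 31.2% in ablation, and scaling to nuclear totals alone was not tested. With a loess correction on mean signal the counts were 145 and 80 (64.4%). Dividing by the totals moved the median of all tested peaks from -0.01 to -0.35, and values here are relative to the deposited scale. Most peaks past 2-fold were weak ones. The 4 weakest deciles, with 2247 gene-end peaks, held 200 of the 242 higher and 42 of the 55 lower ones. In deciles 8 to 10, of 9408 gene-end peaks 0 were higher and 1 was lower, at Thbs1, while of 13436 other peaks 25 were higher and 15 lower.

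**Figure D2:**
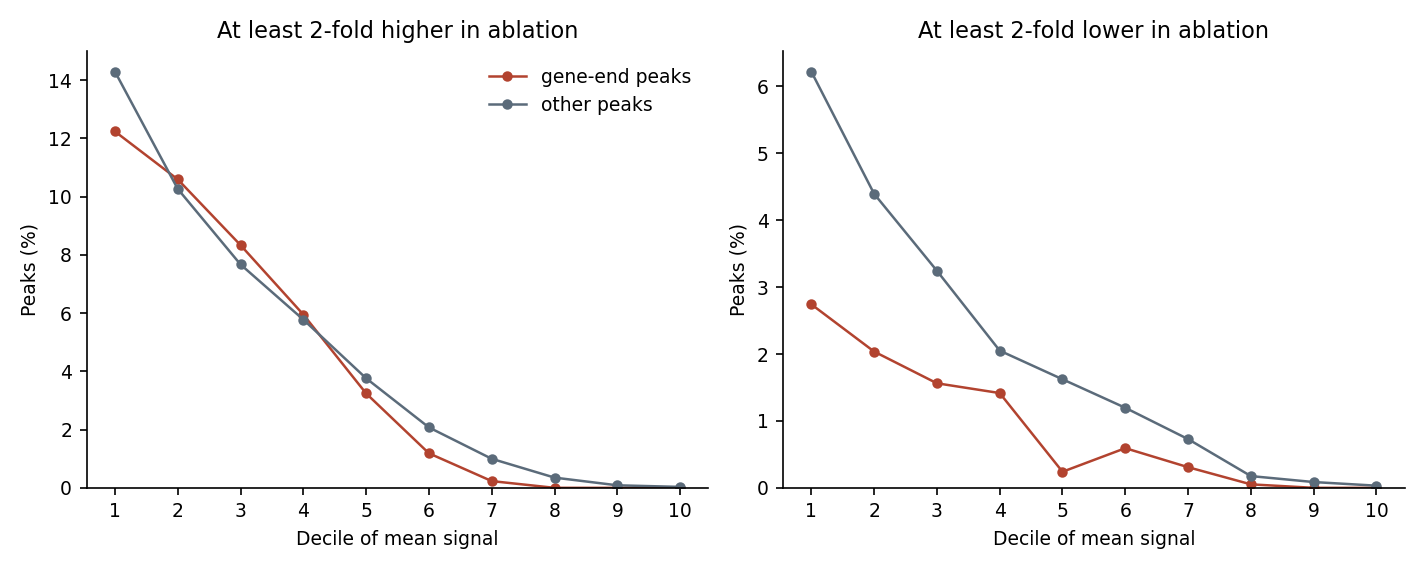
Percent of tested peaks at least 2-fold higher (left) and lower (right) in ablation, for gene-end and other peaks in each decile of mean signal. Both shares drop towards 0 in the strong deciles, and the gene-end share of lower peaks is below that of other peaks in 10 of 10 deciles.

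The like-signal difference was found close to gene ends and at starts rather than at the other ends. Peaks overlapping a gene end stood 0.05 above the median of other peaks in their decile (10675 peaks), those further off but within 250 bp 0.07 (1208), the next ones up to 500 bp 0.06 (919) and those up to 1000 bp 0.03 (1995). Beyond the window the value was 0.03 up to 2000 bp, -0.01 up to 5000 bp, -0.01 up to 20000 bp, 0.01 up to 100000 bp and -0.01 further out. Strand, which tells the 2 ends of a gene apart, was known for 17492 genes. The 9504 peaks near a start and no other end stood at 0.06, and the 1687 near the other end alone at -0.00. The 719 peaks near a start and another end stood at 0.09, and the 2887 at genes without a strand in the reference at 0.06. In the same order, the first 2 groups had 0.231% and 1.07% of peaks at least 2-fold lower, against 0.663% and 1.87% at like signal. The peaks near the other end were weaker, with a median of 71.1 normalized reads. The difference between starts and other ends narrowed to 0.018 with deciles of ablation signal and to 0.029 with a filter at the 25th percentile.

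In their median, starts outside the rule looked like starts inside it. The 1719 other peaks near an inner start, a transcription start of the reference away from both gene ends, stood at 0.06, and the 3452 near the end of a long noncoding RNA gene at 0.03. The remaining peaks inside genes (28291) and outside genes (25810) both stood at -0.01 or nearer 0. The shares past 2-fold were less alike. At inner starts 2.27% were higher, against 2.06% at like signal, and 0.524% lower, against 0.931%. Near a gene start only, 1.26% were higher, against 1.44% at like signal, and 0.231% lower, against 0.663%. Divergent promoters, with starts on both strands within 1 kb of the same peak, had 0 of 955 peaks past 2-fold in either direction, where like-signal rates give 0.341% higher and 0.184% lower. Over the 955 peaks these rates come to 5.02 peaks, and the difference was not tested.

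**Figure D3:**
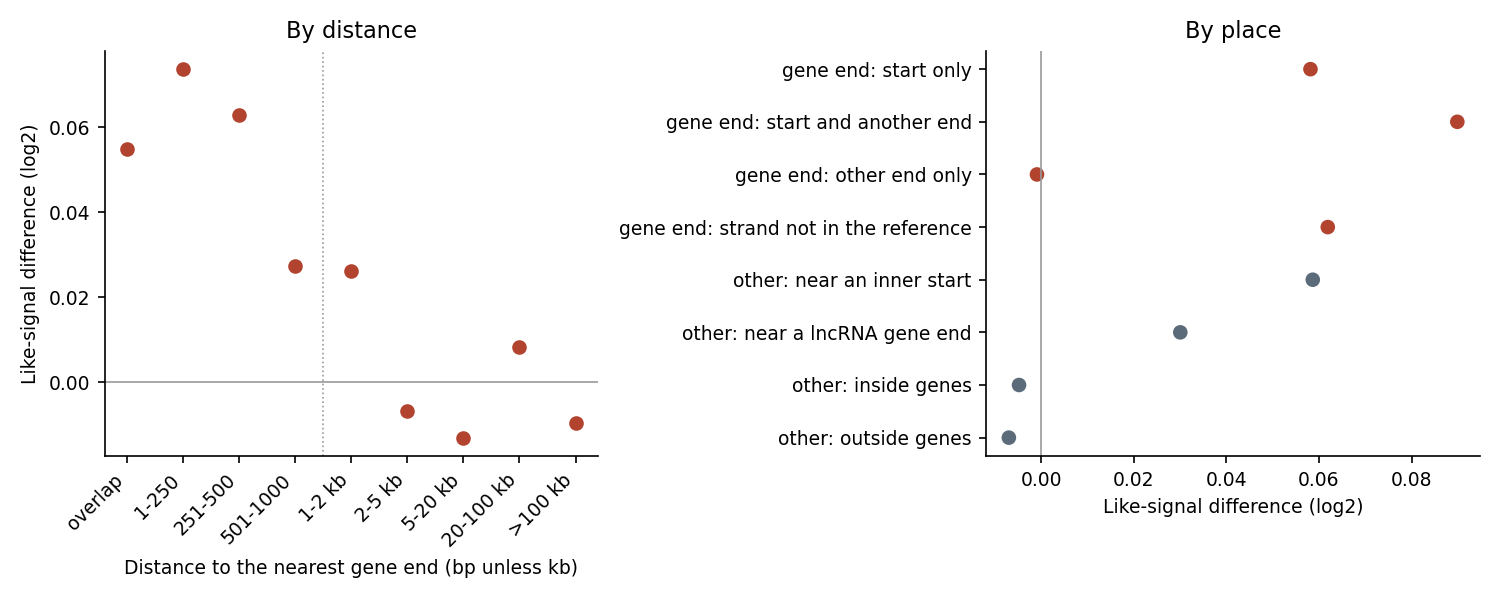
Like-signal difference of the log2 ratio (ablation over control) by distance of a peak from the nearest protein-coding gene end (left) and by place (right, gene-end peaks in red and other peaks in grey), with the 1 kb limit as a dotted line. Classes within 500 bp of a gene end lie at 0.05 to 0.07, peaks near a start at 0.06 and peaks near the other end alone at -0.00.

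Within the same gene the order was the same in a modest majority of genes. In 6852 genes with both kinds of peak, gene-end peaks had the higher value at like signal than peaks inside the gene in 3857 (56.3%), with a median difference of 0.07, or 0.023 with deciles of ablation signal. In 1316 genes with a peak near the start and a peak near the other end, the start peak had the higher value in 721 (54.8%), with a median difference of 0.06. By chromosome, the like-signal difference was above 0 on 19 of 19 autosomes, from 0.01 to 0.07. On the X chromosome 396 gene-end peaks stood at -0.04 and 1090 other peaks at -0.13 against their deciles over all chromosomes, so that both kinds were lower there and the gap remained. The table lists peaks in 3 successive blocks, each in ascending order of peak name, and the labels give no meaning for them. Block 1 held 444 gene-end peaks, of which 113 were at least 2-fold higher and 0 lower. Block 2 held 303, of which 1 was higher and 21 lower, and block 3 held 14050, with 128 and 34. Over all peaks 31.2% were higher and 0.0349% lower in block 1, and 0.264% and 16.1% in block 2. Blocks 1 and 2 are thus split by the ratio itself, and no contrast within them is read here.

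Promoter sequence went with the strength of a gene-end peak. Pooled over deciles, the CpG classes had like medians at like signal, while inside most deciles the richest class stood above the poorest. Of 15752 promoter windows (250 bases before to 50 after a start) at the start of a gene, 9279 (58.9%) lay under a tested peak. Those had a median of 22 CpG and 62% GC, against 3 CpG and 47% GC in windows not under a tested peak. When these windows were cut into 4 classes by CpG, from poor to rich, median signal went from 181 to 415 normalized reads. The median distance of the log2 ratio from that of gene-end peaks in the same decile was 0.00, 0.01, 0.00 and 0.00 in the 4 classes. Inside single deciles the richest class stood apart from the poorest by -0.13 to 0.25. It was above in deciles 2 to 9 and below in deciles 1 and 10. The widest gaps were in deciles 3 and 4 (0.21 and 0.25), where the richest class held 17 and 33 windows. In decile 10, with 1394 windows in the richest class, the gap was -0.03. Peaks at least 2-fold higher made up 1.87% of the class poorest in CpG and 0.474% of the richest, and lower peaks 0.534% and 0%. Over all 9279 windows the shares were 0.894% higher and 0.151% lower. The poorest class is also the weakest in signal, and these shares were not compared at like signal.

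Of the motifs, the GC box GGGCGG was found in 69.4% of windows under a peak and 46.2% of all 21263 promoter windows, and the ETS letters CCGGAAGT in 8.50% and 5.15%. TATAAA was rarer under peaks (6.66% against 12.6% of all windows), as was TGANTCA (5.00% against 6.99%). CCAAT was in 39.2% and 38.2%, CACGTG in 10.7% and 7.84%, and TGACGTCA in 3.46% and 2.23%. Windows with a motif differed from windows without it by -0.04 (TGACGTCA) to 0.02 (TATAAA) in that distance. None of the 7 motifs thus went with a shift as wide as the like-signal difference itself.

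Among gene-end peaks of at least the median signal of tested peaks (66.07 normalized reads), the largest gains were single sites at genes of unlike kinds, all in deciles 6 and 7. A peak 957 bp from an end of Shisal1 (chr15:84380160-84380747) held 28.9 normalized reads in control and 132 in ablation, from 41 and 145 reads, which is 4.55-fold (3.19 to 6.6). A peak 840 bp from the far end of St3gal3, a sialyltransferase gene, held 48.0 and 130 (2.70-fold, 2.01 to 3.66). The start peak of Wfdc11 (chr2:164673801-164674822) held 41.6 and 103 (2.48-fold, 1.8 to 3.46). The start of Btc, which codes for the EGF-family ligand betacellulin (chr5:91402250-91403137), held 53.6 and 119 (2.22-fold, 1.66 to 2.98). A peak near the far end of Hsph1, a heat shock protein gene, held 62.8 and 139, and the start of Soat1, a cholesterol-esterifying enzyme (chr1:156473942-156474616), held 46.6 and 102. Ankk1, Galnt12, Colca2 and Ppp1r3g had log2 ratios of 1.11, 1.08, 1.07 and 1.05. With equal library totals, mitochondrial peaks included, the log2 ratios were 1.81 at Shisal1, 1.08 at St3gal3 and 0.96 at Wfdc11. The other named gains then ran from 0.80 (Btc) to 0.72 (Ppp1r3g), so that these and Wfdc11 were below 2-fold. As deposited, the interval of all 10 gains lay above 1. The peaks were chosen by their ratio, and the intervals take no account of that choice.

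The largest losses included a gene of the differentiated epidermis. The start of Fggy, a carbohydrate kinase (chr4:95556812-95557754), held 133 normalized reads in control and 49.0 in ablation, from 189 and 54 reads, which is 2.72-fold lower (2.003 to 3.76). A peak near the far end of Btla, a lymphocyte receptor gene, held 128 and 47.2. A peak 482 bp from the outermost start of Krt2, a keratin of the upper spinous layer (chr15:101817951-101818474), held 96.0 and 37.2. That is 2.58-fold lower (1.81 to 3.75). The printed run of Krt2, which precedes another listed start, lies inside this peak. The peak is in block 2, which is split by the ratio, so its loss is conditioned on that block. The far end of Krt34, a hair keratin gene, held 145 and 57.1, and the start of Angptl7 (chr4:148500508-148501194) 160 and 64.4. The start of Ceacam19 (chr7:19887540-19888143) held 135 and 59.9. An end of Thbs1, which codes for the matrix protein thrombospondin 1 (chr2:118127100-118128500), held 275 and 133, from 390 and 147 reads, and was the lone gene-end peak of the 3 strongest deciles past 2-fold. Zfp457, Slc35f1 and Creg1 had log2 ratios of -1.10, -1.10 and -1.01. With equal library totals, mitochondrial peaks included, the named losses ran from -1.76 (Fggy) to -1.34 (Creg1). As deposited, the interval of all 10 losses lay below 1, again for peaks chosen by their ratio.

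**Figure D4:**
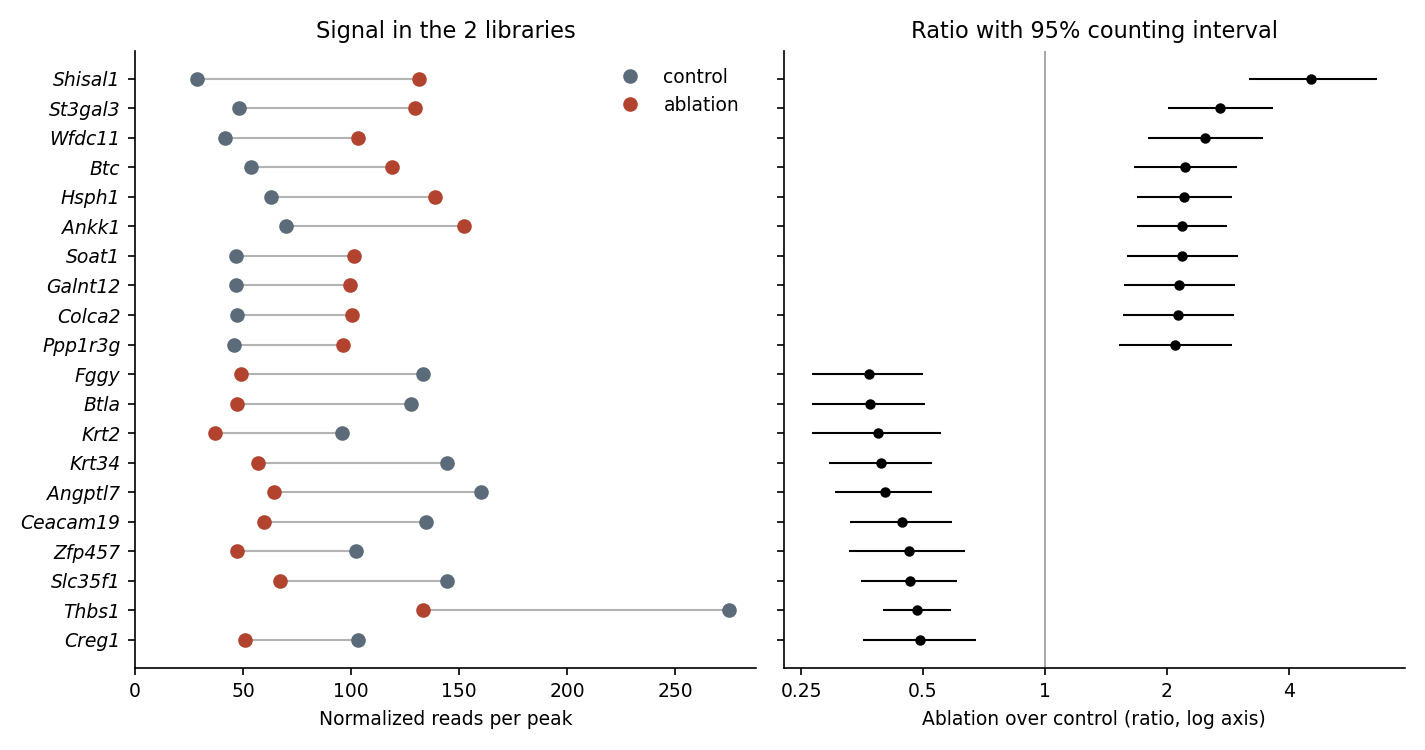
Signal in control and ablation (left, normalized reads per peak) and the ratio of ablation to control with its 95% counting interval (right, log axis) for the 10 gene-end peaks with the largest gains and the 10 with the largest losses among those of at least median signal. Shisal1 has the largest gain and Fggy the largest loss, and no interval reaches a ratio of 1, though the peaks were chosen by their ratio.

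The strongest gene-end peaks differed by less than 1.5-fold as deposited. A peak of 408 bp near the far end of Lars2, the mitochondrial leucyl-tRNA synthetase gene (chr9:123461788-123462196), held 8557 normalized reads in control and 6762 in ablation (0.790-fold, 0.768 to 0.813). Per kb it held 20973 in control, far above Khsrp (2728), Sp1 (1711) and Egr1 (1389). Why its signal is so dense was not tested. The start of Sp1 (chr15:102405281-102406854) held 2691 and 2134 (0.793-fold), and that of Khsrp, a splicing and RNA decay factor that shares the peak with Slc25a41 (chr17:57031377-57032329), 2597 and 1982 (0.763-fold). Egr1, an immediate early transcription factor, held 2634 and 2370 (0.8997-fold). Against the median of the strongest decile Lars2 stood at -0.17, Sp1 at -0.17 and Khsrp at -0.22, all below the first quartile of gene-end peaks there, and Egr1 at 0.02. Their ratios depend on the scaling. With the libraries set to equal totals, mitochondrial peaks included, the log2 ratios were -0.68 (Lars2), -0.67 (Sp1), -0.73 (Khsrp) and -0.49 (Egr1). With a loess correction on mean signal they were 0.09, -0.02, -0.08 and 0.17, so that Lars2 and Egr1 turn direction. Just inside the 1 kb limit, at 999 bp, lay peaks at Ssc5d (log2 ratio 0.11), Prnd (-0.44) and Ddx47 (-0.28), and just outside it, at 1002 or 1003 bp, peaks at Add3 (-0.50), Hs3st6 (-0.42) and Dpm2 (-0.09).

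Genes were then read by their strongest gene-end peak, as the distance of its log2 ratio from the median of gene-end peaks in the same decile. Over all 13667 genes with a tested gene-end peak 6992 (51.2%) were above that median and 6668 below, with a median of 0.01 and quartiles of -0.12 and 0.15. The lists are small and their members were known to be of interest in these data, so the counts below describe them.

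**Figure D5:**
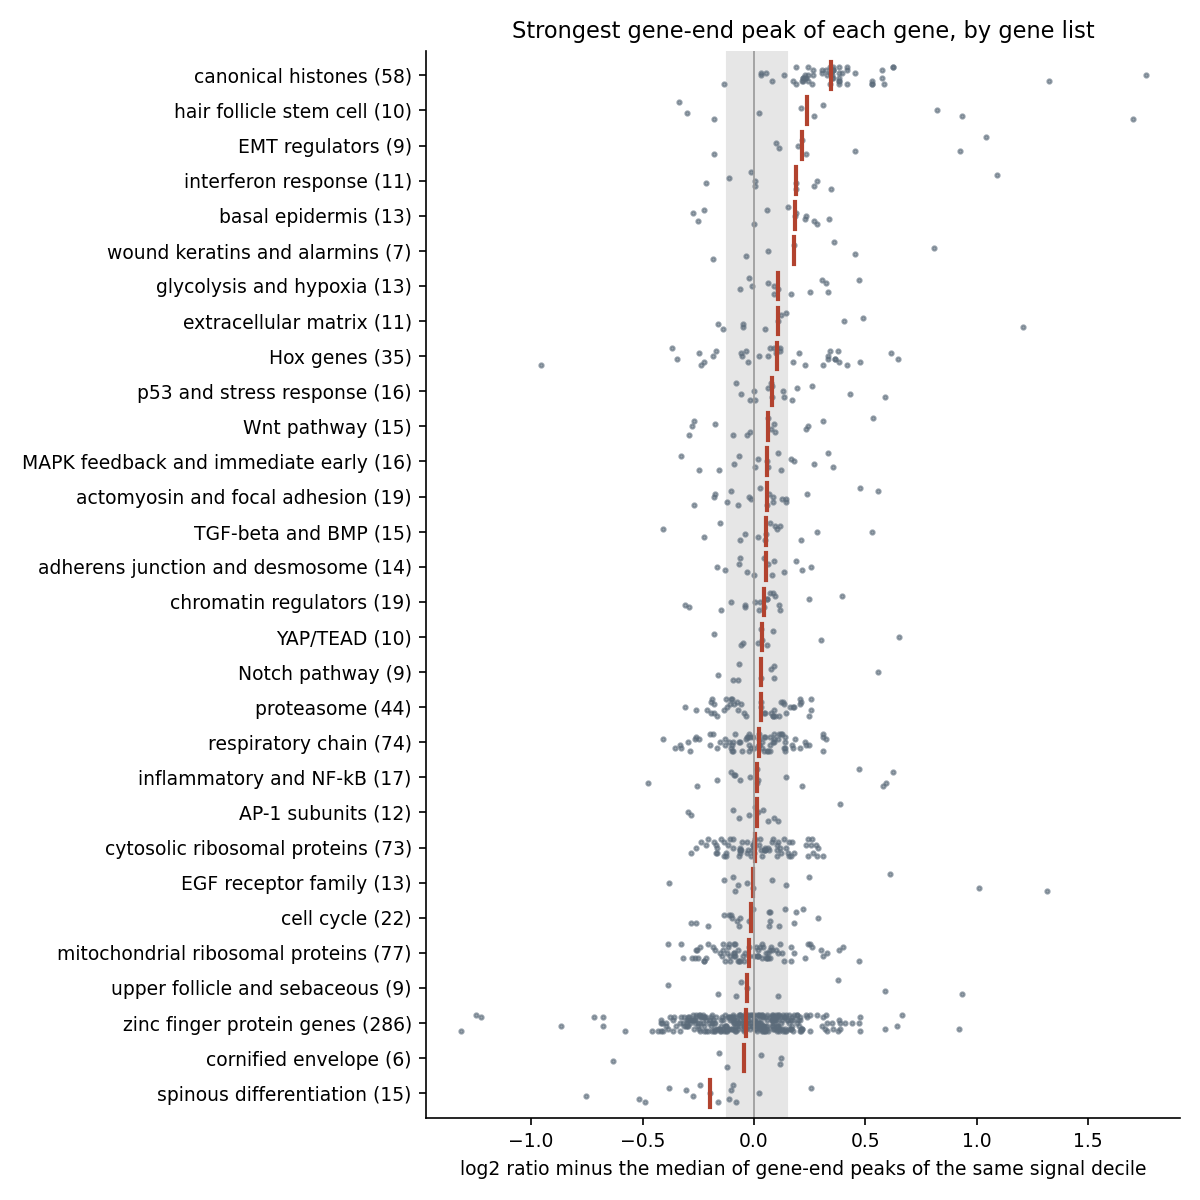
Distance of the log2 ratio (ablation over control) of each gene's strongest gene-end peak from the median of gene-end peaks in the same decile of mean signal, by gene list with at least 6 tested genes. Points are genes, red bars are list medians and the grey band is the interquartile range of all 13667 genes, and canonical histones (0.35) and spinous genes (-0.20) have the highest and the lowest median.

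Canonical histone genes, which sit in clusters and package new DNA in S phase, were above in 57 of 58 genes, with a median of 0.35. Neighbouring histone genes share peaks, so these were 38 distinct peaks, 37 of them above. Reads from near-identical histone copies may be placed at more than one gene. The shift was modest at strong peaks: H2ac11 held 382 normalized reads in control and 523 in ablation (0.62 above its decile). A ratio of 2-fold was passed at H4c17 (28.2 and 78.9) and at H3c14 (5.65 and 26.3, from 8 and 29 reads), the latter kept by the filter only through its ablation value, and H3c4 was the member below, at -0.13. Cell cycle genes were split instead. Of the 22 tested 10 were above and 12 below, with Cdk2 at 0.29 and Mcm3, a replication helicase subunit, at -0.28.

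By their strongest peaks, spinous and basal genes lay mostly on opposite sides. Of 15 spinous genes 2 were above and 13 below, with a median of -0.20, or -0.13 with deciles crossed with 3 classes of peak length. The strongest peak of Krt2 went from 106 to 68.0 normalized reads, that of Krt10 from 217 to 151, and that of Sbsn, suprabasin, from 131 to 96.1. That of Krt1, by contrast, held 104 and 102, and Grhl3, a regulator of barrier formation, was above its decile with 328 and 370. Weaker gene-end peaks of Krt1, Krt2 and Krt10 went either way. A further Krt10 peak rose from 120 to 151, and further Krt1 peaks from 28.9 to 47.2 and from 63.5 to 89.8. Further Krt2 peaks fell from 45.9 to 27.2 and from 96.0 to 37.2. Of 13 basal genes 10 were above and 3 below, with a median of 0.18. Dst, a linker of the hemidesmosome (105 and 138), Cdh3, P-cadherin (512 and 554), Krt14 and Krt5 were above by 0.24 to 0.34. The 3 below were anchoring genes too: Lama3 at -0.27, Col17a1 at -0.25 and Itga6 at -0.22. Cornified envelope genes were 3 above and 3 below, with Ivl, involucrin, at 88.2 and 61.7.

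Genes of other follicle states and of wounding had members far above their decile. Of 10 hair follicle stem cell genes 7 were above and 3 below (median 0.24). Sox9, a stem cell regulator, went from 186 to 337 normalized reads, and Foxi3 from 60.7 to 118. Cd34, whose protein was gated out in the sort of both libraries, held 8.47 and 34.5, from 12 and 38 reads, and passed the filter only through its ablation value. Lhx2 and Tcf7l2 stood at -0.34 and -0.30. The median of this list was 0.086 with a window of 2 kb. It was 0.11 in block 3 alone and 0.52 in block 1 alone, which is split by the ratio. Of 9 upper follicle genes 4 were above and 5 below (median -0.03), with Krt79 at 69.9 and 115 and the lowest member at -0.39 from its decile. The start peak of Lrig1, whose protein was gated out too, held 637 and 553. Of 7 wound keratin and alarmin genes 5 were above (median 0.18). Among them Lcn2, lipocalin 2, went from 19.1 to 40.8 and Krt17 from 361 to 441, while Krt16 stood at -0.04. S100a9, also among those above, held 11.3 and 18.1, from 16 and 20 reads, and passed the filter only through its ablation value.

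Of 9 regulators of epithelial-mesenchymal transition 8 were above and 1 below (median 0.21). Hmga2, a chromatin architecture protein, went from 57.9 to 121 normalized reads and Foxc2 was below at -0.18. Twist2 held 8.47 and 22.7, from 12 and 25 reads, and passed the filter only through its ablation value. Over peaks that overlap a gene end the median of this list was 0.14. Of 11 interferon response genes 8 were above (median 0.19), with Oas1a, a viral RNA sensor, at 16.2 and 42.6 and Stat2 below at -0.22. The strongest peak of 1 of these 11 genes passed the filter only through its ablation value. Of 13 glycolysis and hypoxia genes 10 were above (median 0.11), with Vegfa, the vascular growth factor, at 294 and 385. Of 16 p53 and stress genes 13 were above (median 0.08), with the chaperone gene Hspa1a at 723 and 967. Of 11 extracellular matrix genes 7 were above (median 0.11), with Tnc, tenascin C, at 275 and 343. Nid2 held 12.7 and 35.4 and passed the filter only through its ablation value. Of 35 Hox genes, which keep positional identity, 23 were above (median 0.11), from Hoxa11 at 0.65 to Hoxb5 at -0.96.

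Signalling lists were close to all genes, with single members apart. Of 13 EGF receptor family genes 6 were above and 7 below (median -0.00). The ligand genes went separate ways: Ereg held 26.1 and 72.6 normalized reads, Btc 53.6 and 119 and Tgfa 313 and 350, while Epgn held 275 and 199 and Areg 176 and 166. Of 12 AP-1 genes 7 were above (median 0.01), with Jdp2 at 0.39, Fosb at -0.30 and Fos at -0.28. The strongest peaks of Fosb and Fos lay at the far end, and their start peaks stood at -0.05 and -0.01. Of 17 inflammatory genes 9 were above (median 0.01), with the chemokines Cxcl2 at 0.62 and Ccl2 at 0.59 and the cytokine Il1a at -0.47. The Wnt list had 8 of 15 above (0.06), the MAPK list 11 of 16 (0.06), the TGF-beta and BMP list 10 of 15 (0.06), the YAP/TEAD list 7 of 10 (0.03) and the Notch list 5 of 9 (0.03). Their outer members were Wnt7a at 0.54 and Dkk3 at -0.29, Spry4 at 0.36 and Egr3 at -0.33, Fst at 0.53 and Id1 at -0.41, Ccn2 at 0.65 and Lats1 at -0.18, and Heyl at 0.56 and Hey1 at -0.16.

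Structural and housekeeping lists had medians between -0.03 and 0.06. Adherens junction and desmosome genes had 9 of 14 above (0.05), actomyosin and focal adhesion genes 11 of 19 (0.06), with Rhoc at 0.56 and the myosin gene Myh9 at -0.27, and chromatin regulators 13 of 19 (0.04), with Ep300 at 0.39 and Chd4 at -0.31. Cytosolic ribosomal protein genes had 40 of 73 above (0.00), mitochondrial ribosomal protein genes 36 of 77 (-0.02), respiratory chain genes 38 of 74 (0.02) and proteasome genes 23 of 44 (0.03). Zinc finger protein genes, a large family of repressors with many close copies, had 129 of 286 above and 157 below (-0.03), from Zfp697 at 0.92 to Zfp972 at -1.32. The strongest peak of 1 of these 286 genes passed the filter only through its ablation value.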

How the data were processed

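Open chromatin was measured by ATAC-seq in 1 control and 1 ablation library. The authors deposited 1 table of normalized signal per peak and library. Per the submitters' processing notes, the build was mm10 and the tools MACS2 2.1.0.20151222, Bowtie2 2.3.4.2, HTSeq, Picard and Trimmomatic, with no role given for any; how the signal was normalized and the peaks selected is also not given in the sources used here. Of its columns, control is named with the number 2 and the other with Exp; the latter was taken as ablation, since 1 sample is no control. In 100% of values the signal was a whole number of steps (0.706 and 0.907) within 0.1 read, so whole reads were recovered. No count test could be fitted with 1 library per group.

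Of 116411 rows, exact repeats were merged to 84594 peaks, and 3 mitochondrial peaks were left out. Whether starts count from 0 or 1 is not stated. RefSeq's gene table (GRCm38.p6) gave the gene ends, and strand and sequence from its promoter table. Log2 ratios used a pseudocount of 1, and understate the change of weak peaks. Peaks from the 10th percentile of mean signal were tested for size, at 2-fold. Intervals are exact Clopper-Pearson intervals; reads without molecular identifiers are not independent molecules. Peaks were named by rule: at gene ends, the 10 largest and 10 smallest log2 ratios among those of at least median signal, 1 per gene, without predicted genes, the 5 strongest (1 lies at predicted genes), the basal markers, the 3 peaks on each side of the 1 kb limit, and list members with the highest and lowest values. Others named were chosen after their values were seen. The members and the 35 lists were chosen with earlier results of these data known, and 5 list places are held by a gene that another list holds too. The steps were tested on simulated data. Alternatives covered pseudocount, filter, classes of signal and length, scaling, window, comparison peaks, fold, chromosomes and table blocks. Software was scipy 1.17.1, numpy 2.4.6, matplotlib 3.10.9, pandas 2.3.3 and statsmodels 0.14.6 in Python 3.11.15.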

Additional observations from a re-analysis of the deposited data

Results flagged for a closer look

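Mitochondrial peaks, which the comparison of gene ends does not use, held 31.2% of the ablation library's peak reads (31.2 to 31.3% by counting), against 7.31% in control. It was singled out because a signal outside the main measurement exceeded its level in control. How it bears on gene-end peaks was not tested.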

How the results depend on the processing

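No paired analysis was possible because each group has 1 library, and for the same reason no library could be left out. Of the 200 alternative values of the main results, 176 stayed close, by less than 1.5-fold or, for rich minus poor CpG promoters, whose value is near 0 and takes either sign, by less than 0.02. The 176 include values that a setting could not change. The fold threshold, for one, enters only the shares of higher and lower peaks. With deciles of ablation signal, the like-signal difference was 0.022, starts minus other ends 0.018, peaks overlapping a gene end minus other peaks 0.017 and gene ends minus inner peaks of the same gene 0.023; with deciles crossed with 3 classes of length they were 0.035, 0.031, 0.033 and 0.043. Deciles of control signal gave 0.087 for overlapping minus other peaks, and a filter at the 25th percentile 0.029 for starts minus other ends. At 3-fold, lower peaks over the like-signal count came to 0.268. Blocks 1 and 2 of the table are split by the ratio, so values within them are conditioned on it and say nothing of stability. Within block 1 alone the 4 contrasts in that order were -0.070 (a reversal), 0.025, 0.086 and within 1.5-fold, lower peaks over the like-signal count were 0, 8 of the 15 lists with a peak there had a median above that of all genes, against 25 of 35, and promoters rich in CpG stood at -0.31 against poor ones. Within block 2 they were 0.15, 0.024, 0.090 and 0.15, with 5 of 15 lists and -0.40; higher peaks over the like-signal count were 1.68, from 1 peak, a reversal. In block 2 the basal list turned to -0.42 and the zinc finger list to 0.16. Within block 3 alone the list medians were 0.31 for histones, 0.21 for EMT regulators and 0.11 for hair follicle stem cell genes. In the main setting they were 0.35, 0.21 and 0.24. With loess, Lars2 turned to 0.089 and Egr1 to 0.17. Counts of gene-end peaks higher and lower were 73 and 234 with library totals, 145 and 80 with loess, 145 and 32 with a pseudocount of 5, 352 and 96 without filter, 149 and 36 at the 25th percentile, 361 and 105 within 2 kb, 100 and 22 for overlap alone, 893 and 320 at 1.5-fold and 37 and 4 at 3-fold, against 242 and 55. The setting of 1 peak per overlapping group left the peaks unchanged, so its values repeat the main ones by construction and say nothing of stability. The cause of these shifts was not tested. Depth limits the 4 weakest deciles, where counting error makes up much of the spread.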

Other observations

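The Y chromosome held 4 tested gene-end peaks, of which 2 were at least 2-fold higher in ablation, with a median log2 ratio of 1.10, and 11 other peaks with a median of 0.16. Some genes had gene-end peaks with unlike ratios. The strongest gene-end peak of Thbs1 held 1065 normalized reads in control and 846 in ablation, and 2 weaker ones held 275 and 133, and 50.8 and 21.8. At Jag2, a Notch ligand gene, the strongest peak held 780 and 740, and a weaker one 44.5 and 16.3, from 63 and 18 reads. At Krt6a, a wound keratin gene, the strongest held 291 and 288, and a weaker one 8.47 and 20.9, from 12 and 23 reads. At Rpl22, a ribosomal protein gene, a peak other than the strongest went from 8.47 to 33.6, from 12 and 37 reads. The last 2 weak peaks, at Krt6a and Rpl22, passed the filter only through their ablation value. These peaks were chosen after their values were seen.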
